A study of Mus musculus with 18 samples.

Results

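Small nucleolar RNAs (snoRNAs) were examined in the livers of mice that ate a low-fat or a high-fat diet with or without 1 of 2 perfluorinated compounds. A gene was taken as a member if a probe of the array carried its symbol alone and the symbol began with Snora (box H/ACA) or Snord (box C/D). This gave 73 genes, 26 Snora and 47 Snord, of 22180 genes with a probe of 1 symbol. They rest on 75 probes. For the 2 symbols with more than 1 probe, the probe with the highest mean over the 18 arrays was used. The RefSeq lengths of the 26 Snora genes ran from 56 to 205 bases (median 118.5) and those of the 47 Snord genes from 48 to 221 bases (median 68). Snord113 to Snord116, the families of the imprinted clusters, have 0 members among the 73.

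Box C/D snoRNAs pair with ribosomal and other RNAs and direct fibrillarin to methylate the ribose of the paired base. Box H/ACA snoRNAs direct dyskerin to turn uridine into pseudouridine. A few of either kind act in the cleavage of the ribosomal RNA precursor instead, and most mammalian snoRNAs are cut out of introns of host genes, many of which encode ribosomal proteins or make long noncoding RNAs. In cultured hamster cells, the box C/D snoRNAs of the Rpl13a gene have been tied to the toxic effects of fatty acids, and U17, the RNA named Snora73, to cholesterol trafficking.

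The mice were male C57BL6, and each group had 3 arrays of liver RNA, which the labels call biological replicates. On the low-fat diet, with 10% of calories from fat, there were a PFOS (perfluorooctane sulfonic acid) group, a PFNA (perfluorononanoic acid) group and an unexposed control group. On the high-fat diet, with 45% of calories from fat, there were the same 3 groups. All 6 groups ate their diet for 12 weeks, between 6 and 18 weeks of age. No dose is stated in the labels. All values below are log2 signals of the deposited table or differences between them. The p-values come from limma, adjusted over all 34472 probes, a call means an adjusted p under 0.05, and a difference is exposed minus control unless said otherwise.

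Of the 73 members, 70 lie within the span of another RefSeq gene. The starts of 4 of these host genes are shown. The snoRNAs of Snhg3, Snhg12 and Nop58 are described below for their large differences or for differing within 1 host, and Rpl13a holds the box C/D snoRNAs named above. Each line gives 75 bases before and 25 bases from the annotated start on, 5′ to 3′, from RefSeq (GRCm38.p6). Capitals mark a run of C and T that begins with C within 2 bases of the start, the kind of start that genes of the translation machinery often have.
Snhg3, host of Snora73a and Snora73b, chr4:132353662-132353761, minus strand: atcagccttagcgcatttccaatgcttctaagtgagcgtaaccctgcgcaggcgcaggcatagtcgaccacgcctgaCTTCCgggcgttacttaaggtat
Snhg12, host of Snora16a, Snora44, Snora61 and Snord99, chr4:132308603-132308702, plus strand: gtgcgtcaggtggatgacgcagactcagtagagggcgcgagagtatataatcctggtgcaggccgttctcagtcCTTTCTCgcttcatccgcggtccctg
Rpl13a, host of Snord35a, chr7:45128721-45128820, minus strand: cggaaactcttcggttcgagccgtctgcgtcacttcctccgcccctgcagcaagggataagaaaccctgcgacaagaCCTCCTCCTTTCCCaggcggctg
Nop58, host of Snord11 and Snord70, chr1:59684931-59685030, plus strand: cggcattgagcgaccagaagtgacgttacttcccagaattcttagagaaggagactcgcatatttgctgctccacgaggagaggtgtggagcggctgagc
Snhg3, Snhg12 and Rpl13a have such a run, and Nop58 has none in this window. Such a run was also absent at the starts of Rpl4, Gnl3, Snhg1, Snx5 and Wdr43, which hold Snord16a, Snord69, Snord22, Snord17 and Snord92. Their windows are not printed.

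Among the hosts, 44 of 56 matched a promoter in the RefSeq table, which reaches from 250 bases before the start to 50 after it. A C followed by 4 bases of C or T, on the coding strand and within 2 bases of the start, was present in 9 of these 44 promoters (20.5%) and in 2424 of all 27025 promoters of the table (8.97%). The letters CACGTG, which read the same on both strands, were present in 11 of 44 host promoters (25%) and in 1956 of 27025 (7.24%). A match to these letters is a description and not a site shown to be used.

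The arrays did not all fall with their groups. The median signal of an array over all probes lay between 4.43 and 4.59. On the first principal component of all probes, the 3 high-fat PFOS arrays scored 27.8, 34.9 and 38.6, and 13 arrays lay between −22.9 and −8.1. Low-fat PFOS replicate 3 scored 32.9 and high-fat PFNA replicate 3 scored 32.4, apart from the other arrays of their own groups. Both scores lie within the range of the high-fat PFOS arrays. Whether these arrays carry the right labels was not tested, and the doubt extends to every value of the low-fat PFOS and high-fat PFNA groups. It reaches the high-fat PFOS group too, whose range of scores holds both arrays. Low-fat PFOS replicate 3 and high-fat PFNA replicate 3 are called the 2 divergent arrays. The class medians and calls of the comparisons that hold them are given with and without them. They were picked by their values, so the fit without them is a further description and not a separate test.

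The snoRNAs of a class moved together from array to array. For each array, the deviation of every member from its own mean over 18 arrays was taken, and the median over a class was used as its level. The Snora level was −0.68, −0.69 and 0.67 in low-fat PFOS, −0.29, −0.17 and −0.29 in low-fat PFNA, and 0.20, 0.33 and 0.16 in low-fat control. The Snord level was −0.76, −0.83 and 0.48 in low-fat PFOS, −0.15, −0.19 and −0.39 in low-fat PFNA, and 0.15, 0.52 and 0.22 in low-fat control. In both classes all 3 PFNA arrays and PFOS replicates 1 and 2 lay below every low-fat control, whereas PFOS replicate 3 did not.

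On the high-fat diet the levels overlapped more. The Snora level was −0.18, 0.07 and 0.21 in PFOS, 0.01, −0.29 and 0.40 in PFNA, and 0.30, 0.31 and 0.27 in control. The Snord level was −0.48, 0.13 and 0.38 in PFOS, 0.04, −0.41 and 0.45 in PFNA, and 0.33, 0.14 and 0.24 in control. All 3 high-fat PFOS arrays lay below every high-fat control in the Snora level but not in the Snord level, and PFNA replicate 3 lay above the controls in both.

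**Figure D1:**
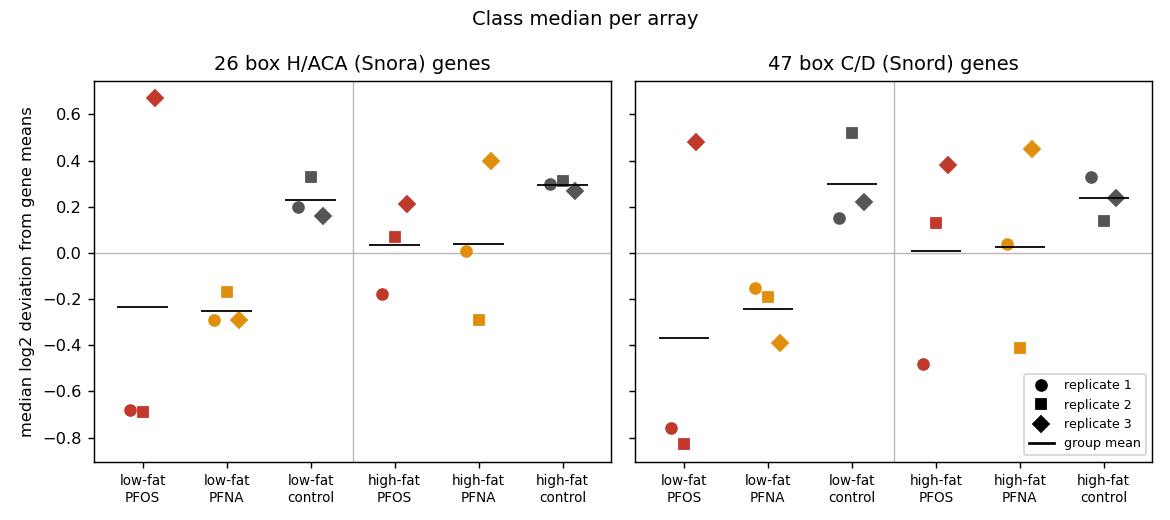
Median deviation of the 26 Snora genes (left) and the 47 Snord genes (right) from their own means, in log2 units, for each of the 18 arrays. Symbols mark the replicate number and lines the mean of the 3 arrays of a group. Low-fat PFOS replicate 3 (0.67 and 0.48) stands apart from replicates 1 and 2 of its group, which lie at −0.68 or below.

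The count of members above their own mean tells the same arrays apart. It was 3, 6 and 68 of 73 in low-fat PFOS, 11, 19 and 15 in low-fat PFNA and 55, 60 and 55 in low-fat control. On the high-fat diet it was 16, 46 and 61 in PFOS, 39, 13 and 65 in PFNA and 59, 51 and 55 in control.

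**Figure D2:**
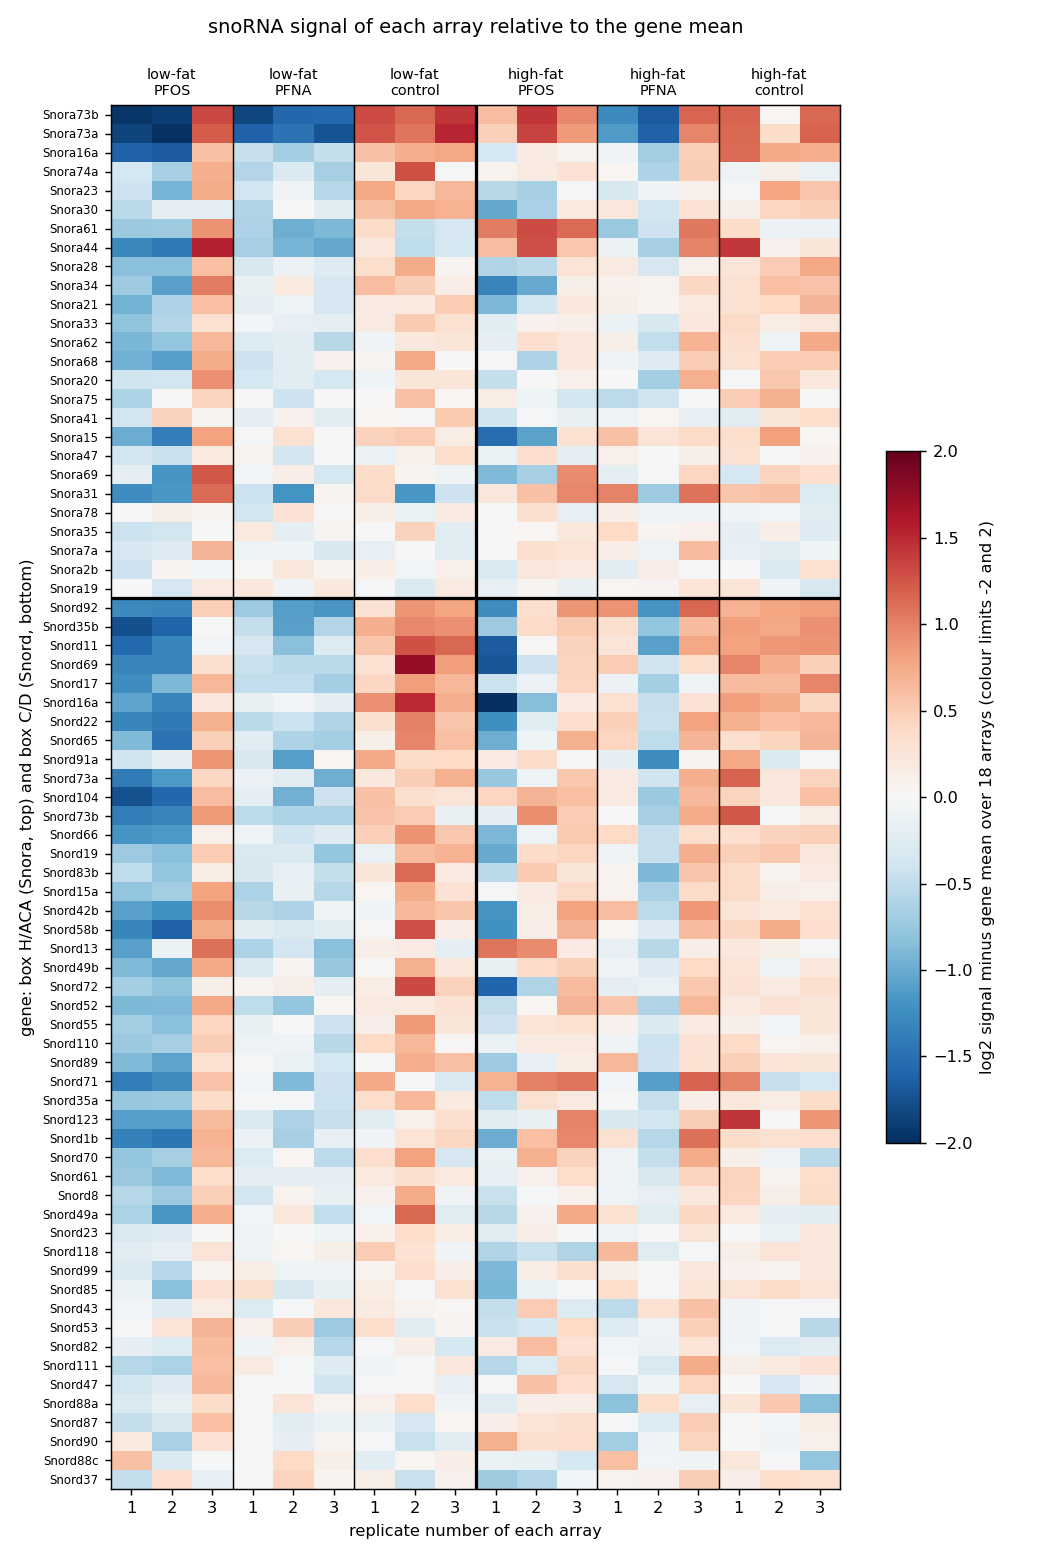
Log2 signal of each member (rows, Snora above Snord) in each array (columns, by group and replicate number) minus the member's mean over 18 arrays; blue is below and red above that mean, and the colour stops at −2 and 2. Columns 1 and 2 of low-fat PFOS are blue in nearly all rows, where 3 and 6 of 73 members lie above their mean, and column 3 is red, where 68 do.

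In the comparison of PFOS with control on the low-fat diet, snoRNA signals were mostly lower, and 1 member was called. The mean was lower in the PFOS group for 65 of 73 members, against 54% of all probes. The median difference was −0.41 over the Snora genes and −0.66 over the Snord genes, and it was −0.02 over all probes. Snord35b, a box C/D snoRNA, was the only member called lower (1 of 73, with 0.107% of all probes), and 0 members were called higher (0.281%). At an unadjusted p under 0.05, 27 members were lower (7 Snora and 20 Snord, with 5.94% of all probes) and 0 were higher (6.01%).

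Snord35b had signals of 5.15, 5.30 and 6.91 in the PFOS arrays, against 7.63, 7.87 and 7.82 in the low-fat controls. All PFOS arrays lay below all controls, with replicate 3 the nearest. The difference was −1.99 (SE 0.41, adjusted p = 0.046, limma), a signal 3.96-fold lower. The adjusted p lay between 0.0046 and 0.196 over the 18 fits that each leave out 1 array, and the call was lost in 14 of them, among them each of the 3 low-fat controls (0.103 to 0.172). In a fit of the PFOS and control groups alone the adjusted p was 0.22, and 0.0029% of all probes were called lower. Snord35a and Snord35b are named as copies of the same snoRNA, so their probes may share signal. Snord35a, which was picked here after its values were seen, had signals of 9.20, 9.22 and 10.33 under PFOS, against 10.31, 10.62 and 10.15 in the controls. Its groups overlap, and its difference was −0.78 (SE 0.27, adjusted p = 0.251).

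Members with large differences that were not called share the same array pattern. Snora73a, the U17 RNA that acts in cleavage of the ribosomal RNA precursor, had signals of 6.52, 6.40 and 9.59 under PFOS, against 9.64, 9.44 and 9.90 in the low-fat controls. Replicates 1 and 2 lay far below the controls and replicate 3 lay among them. The difference was −2.16 (SE 0.67, adjusted p = 0.197). Snora73b, its near-identical neighbour whose probe may read the same RNA, gave 6.74, 6.81 and 10.00, against 9.99, 9.84 and 10.12, with a difference of −2.13 (SE 0.71, adjusted p = 0.232).

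Snord11 and Snord16a showed no overlap between the groups. Snord11 had signals of 5.81, 6.05 and 7.31 under PFOS, against 7.92, 8.64 and 8.51 in the low-fat controls, a difference of −1.97 (SE 0.50, adjusted p = 0.1). Snord16a had 8.59, 8.33 and 9.85, against 10.56, 11.13 and 10.36, a difference of −1.76 (SE 0.43, adjusted p = 0.0895). In both, every PFOS array was below every control. The groups did not overlap for 8 members that were lower under PFOS, with 8.12% of all probes.

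Without the 2 divergent arrays, PFOS on the low-fat diet was represented by 2 arrays, whose spread was taken to be that of the other groups. In that fit 27 of 73 members were called lower (8 Snora and 19 Snord, with 0.551% of all probes) and 0 were called higher (0.766%). The median difference was −1.0 for Snora and −1.17 for Snord, and −0.03 over all probes. The groups did not overlap for 60 members, against 15.1% of all probes. Snora73a differed by −3.20 (SE 0.27, adjusted p = 5.15e-05) and Snora16a by −2.33 (SE 0.19, adjusted p = 5.15e-05). Among the Snord genes, Snord35b differed by −2.55 (SE 0.33, adjusted p = 0.00226) and Snord104 by −2.04 (SE 0.25, adjusted p = 0.00156). Snord22, another snoRNA needed for ribosomal RNA processing, differed by −1.99 (SE 0.34, adjusted p = 0.0124). Members near 0 in the same fit were Snora78 (0.00, SE 0.19), Snord37 (0.00, SE 0.25), Snord90 (0.02, SE 0.23) and Snord53 (0.07, SE 0.32), picked here for their values.

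**Figure D3:**
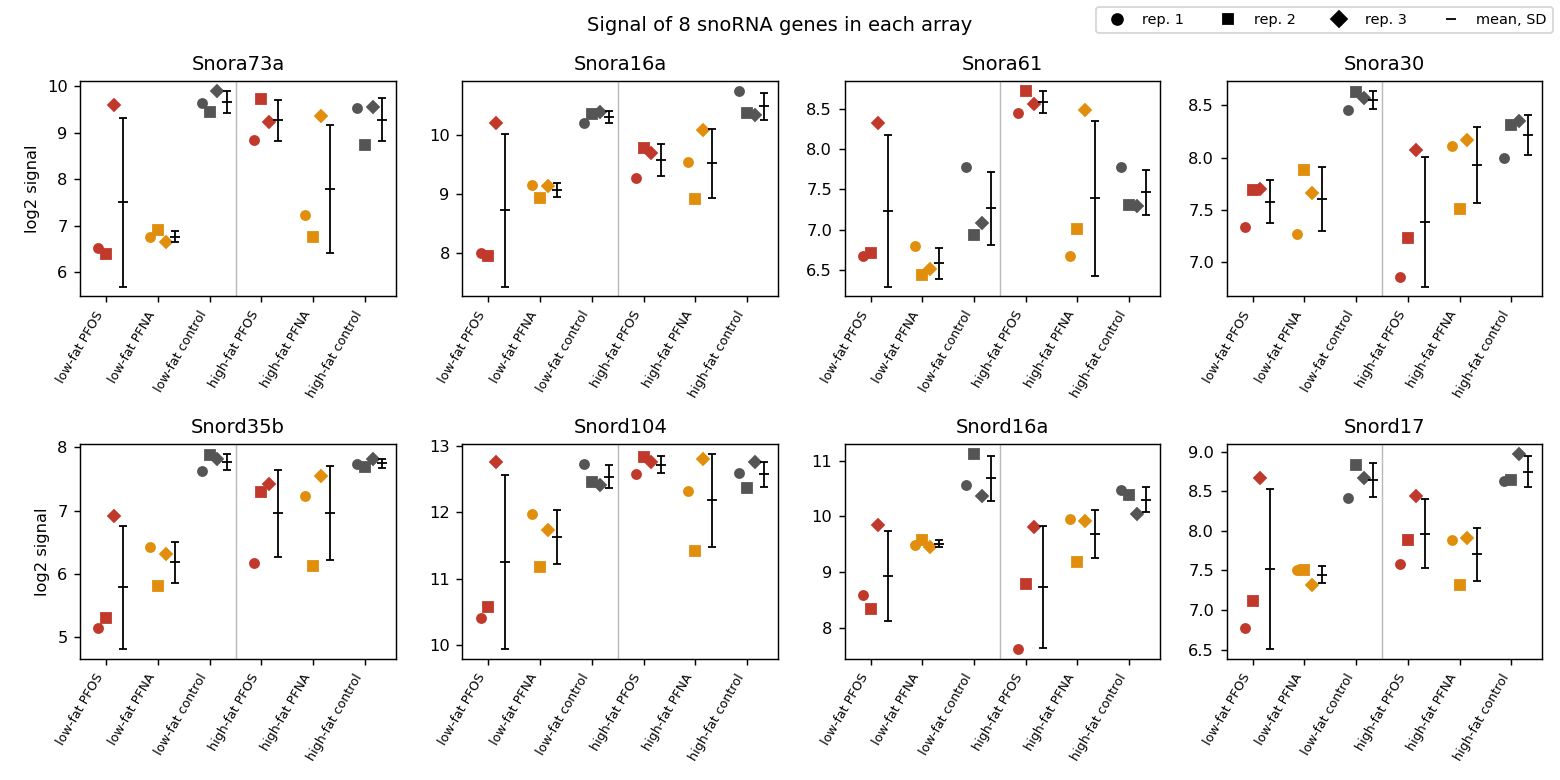
Log2 signal of 8 members in each array, by group, with symbols for the replicate number and the mean ± SD of 3 arrays beside them. Snora73a is at 6.90 or below in low-fat PFOS replicates 1 and 2 and in all low-fat PFNA arrays, and at 9.44 or above in the low-fat controls, while low-fat PFOS replicate 3 and high-fat PFNA replicate 3 reach 9.59 and 9.35.

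PFNA on the low-fat diet gave lower snoRNA signals in all 3 of its arrays. The mean was lower for 67 of 73 members, against 52.7% of all probes, with median differences of −0.46 for Snora and −0.60 for Snord. The groups did not overlap, with PFNA lower, for 42 members (13 Snora and 29 Snord), against 9.32% of all probes. No member was called by limma after adjustment (0.191% of all probes were called lower and 0.374% higher). At an unadjusted p under 0.05, 23 were lower (7 Snora and 16 Snord, with 6.21% of all probes) and 0 were higher (6.66%). In a fit of the PFNA and control groups alone, 10 members were called lower, with 0.252% of all probes. This comparison and that of PFOS share the 3 low-fat control arrays.

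The largest differences belonged to the U17 pair. Snora73b had signals of 6.86, 7.11 and 7.13 under PFNA, against 9.99, 9.84 and 10.12 in the low-fat controls, 7.73-fold lower (log2 difference −2.95, SE 0.71, adjusted p = 0.0676). Snora73a had 6.76, 6.90 and 6.65, against 9.64, 9.44 and 9.90 (−2.89, SE 0.67, adjusted p = 0.0615). In both, the groups lie more than 2 log2 units apart, and the standard error comes from the spread over all 6 groups, which includes the divergent arrays. Without those arrays, no low-fat PFNA or control array being left out, the same differences had standard errors of 0.26 for Snora73b (adjusted p = 5.95e-05) and 0.24 for Snora73a (adjusted p = 4.15e-05).

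Snora30, Snora16a, Snord17 and Snord92 were lower in every PFNA array as well. Snora30 had signals of 7.27, 7.88 and 7.66 under PFNA, against 8.46, 8.63 and 8.57 in control (−0.95, SE 0.25, adjusted p = 0.0893). Snora16a had 9.15, 8.94 and 9.14, against 10.20, 10.35 and 10.39 (−1.24, SE 0.42, adjusted p = 0.187). Snord92, a member with a signal near the array median, had 3.61, 3.23 and 3.17, against 4.63, 5.22 and 5.12. None of the 4 was called with all 18 arrays. Without the 2 divergent arrays 6 members were called lower (Snora16a, Snora23, Snora73a, Snora73b, Snord17 and Snord35b, with 0.609% of all probes) and 0 were called higher (1.11%).

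With PFOS on the high-fat diet the class medians lay slightly below 0, and the counts of higher members were below the share of all probes. The mean was lower for 51 of 73 members, against 51.8% of all probes, and the median differences were −0.23 for Snora and −0.19 for Snord. Without PFOS replicate 1 the medians were −0.05 and 0.00, and without PFOS replicate 3 the Snord median was −0.46. No member was called by limma (0.389% of all probes were called lower and 0.632% higher). At an unadjusted p under 0.05, 15 were lower (7 Snora and 8 Snord, with 6.42% of all probes) and 2 were higher (7.12%). The groups did not overlap for 17 members that were lower under PFOS (8.68% of all probes) and for 5 that were higher (9.71%), namely Snora61, Snora7a, Snord47, Snord82 and Snord90, named here after their values were seen.

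Snora61 lay above its controls in every high-fat PFOS array. It had signals of 8.45, 8.72 and 8.56 under PFOS, against 7.78, 7.31 and 7.30 in the high-fat controls, a difference of 1.11 (SE 0.42, adjusted p = 0.229). Snord16a went the other way, with 7.61, 8.79 and 9.80, against 10.47, 10.38 and 10.05, a difference of −1.57 (SE 0.43, adjusted p = 0.0862). Its PFOS arrays differ among themselves by more than 2 log2 units, with replicate 1 the lowest. Snord118, the U8 RNA that acts in processing of the large-subunit ribosomal RNAs, had 4.47, 4.62 and 4.47, against 5.19, 5.32 and 5.28 (−0.74, SE 0.20, adjusted p = 0.076). The U17 RNA Snora73a had 8.85, 9.73 and 9.23, against 9.53, 8.74 and 9.56. These groups overlap, and the 95% interval of the difference ran from −1.41 to 1.40.

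Without the 2 divergent arrays, which by their labels belong to neither group of this comparison, the spread estimated over all groups was smaller. Snora61 was then called higher (adjusted p = 0.0067, with 1.8% of all probes called higher). Snora16a (−0.91), Snora34 (−1.23), Snord118 (−0.74) and Snord16a (−1.57) were called lower, with 1.13% of all probes.

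For PFNA on the high-fat diet, most members had a lower mean than in control and replicate 2 was the lowest of the 3 arrays. The mean was lower for 55 of 73 members, against 51.5% of all probes, with median differences of −0.23 for Snora and −0.19 for Snord. Without PFNA replicate 2 the medians were −0.10 and 0.02. No member was called by limma (0.0261% of all probes were called lower and 0.087% higher). Without adjustment, at a p under 0.05, 4 were lower (3 Snora and 1 Snord, with 4.86% of all probes) and 0 were higher (4.92%). The groups did not overlap for 9 members, with 6.89% of all probes.

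Snora73a had signals of 7.24, 6.76 and 9.35 under PFNA, against 9.53, 8.74 and 9.56 in the high-fat controls. Replicates 1 and 2 lay below the controls and replicate 3 lay among them. The difference was −1.49 (SE 0.67, adjusted p = 0.484), and −2.28 without the divergent arrays (SE 0.27, adjusted p = 0.0018). Snord17 had 7.89, 7.32 and 7.91, against 8.63, 8.64 and 8.98. All 3 PFNA arrays of Snord17 lay below the controls, with a difference of −1.04 (SE 0.34, adjusted p = 0.298) and of −1.15 without the divergent arrays (adjusted p = 0.0479). Without these arrays 4 members were called lower (Snora16a, Snora73a, Snora73b and Snord17, with 0.128% of all probes), the median differences were −0.41 and −0.44, and the groups did not overlap for 32 members (12.5% of all probes).

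**Figure D4:**
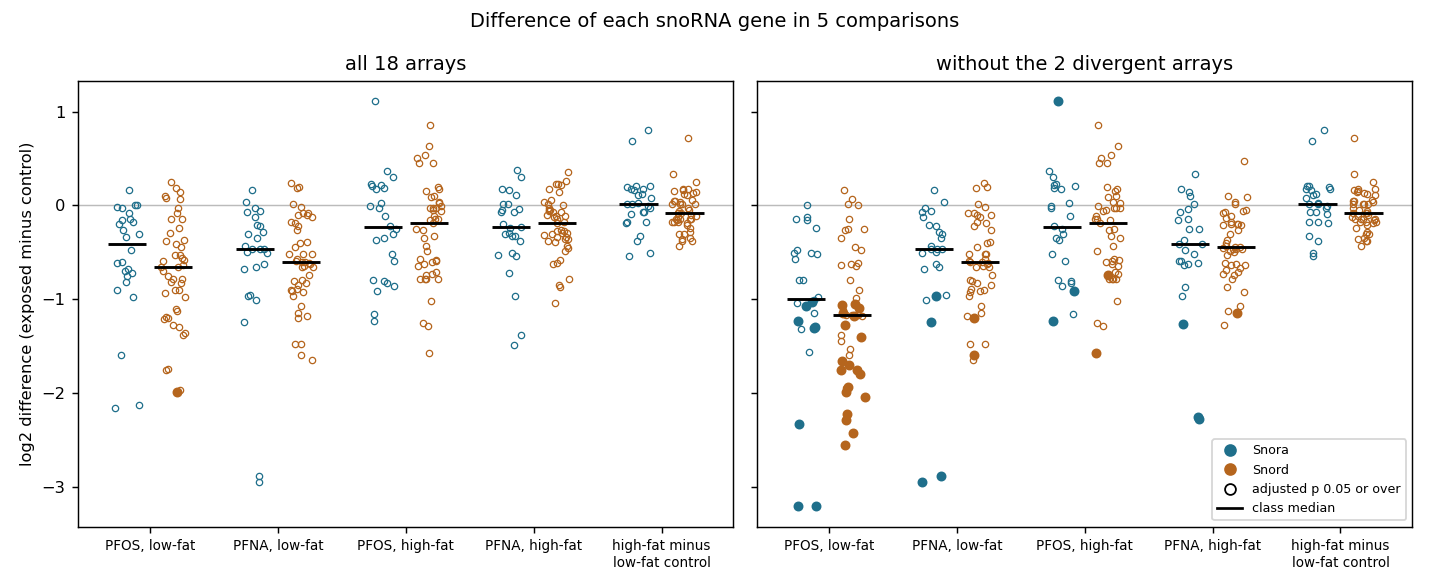
Log2 difference of each member in 5 comparisons, with all 18 arrays (left) and without the 2 divergent arrays (right). Each point is 1 gene, filled where the adjusted p is under 0.05, and lines are class medians. For low-fat PFOS the class medians are −0.41 and −0.66 on the left and −1.0 and −1.17 on the right, where 27 points are filled.

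For the diet alone, the snoRNA differences centred near 0. In high-fat control compared with low-fat control, the mean was lower for 40 of 73 members, against 52% of all probes, and the median difference was 0.02 for Snora and −0.08 for Snord. limma called 0 members after adjustment (0.0029% of all probes were called lower and 0% higher). Without adjustment, at a p under 0.05, 0 members were lower (3.24% of all probes) and 0 higher (3.21%). The largest differences were those of Snora44 and Snora31 among Snora and of Snord123 and Snord70 among Snord. Snora44 had signals of 8.96, 7.63 and 7.79 in the high-fat controls, against 7.77, 7.03 and 7.19 in the low-fat controls. High-fat replicate 1 was the highest, and the groups overlap. The difference was 0.80 (SE 0.59, adjusted p = 0.877).

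The difference between the diets in the response to a compound was tested as an interaction, high-fat minus low-fat. With all arrays limma called 0 members, as it did 0% of all probes, in either interaction. Taken at an unadjusted p under 0.05, the interaction with PFOS was below 0 for 1 member (3.26% of all probes) and above 0 for 4 (3.1%), and that with PFNA for 0 (2.73%) and 1 (2.45%). For PFOS the median interaction was 0.18 for Snora and 0.44 for Snord, and for PFNA it was 0.20 and 0.46. With the 2 divergent arrays left out these medians were 0.44 and 0.92 for PFOS and 0.08 and 0.19 for PFNA. The largest was that of Snora73b with PFOS, at 2.35 (SE 1.01, adjusted p = 0.759). Without the 2 divergent arrays, 5 members were called with a PFOS interaction above 0, as were 0.131% of all probes. They were Snora73b (3.42, SE 0.39, adjusted p = 0.00125), Snora73a (3.19, SE 0.36, adjusted p = 0.00125), Snord104 (2.18, SE 0.33, adjusted p = 0.0137), Snora61 (1.69, SE 0.30, adjusted p = 0.0353) and Snora16a (1.42, SE 0.26, adjusted p = 0.0424). With PFNA 0 members were called in that fit, as were 0% of all probes.

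Snord104 shows the contrast between the diets. It had signals of 12.57, 12.83 and 12.75 in high-fat PFOS, against 10.41, 10.58 and 12.76 in low-fat PFOS. Low-fat PFOS replicate 3 lay at the high-fat level, and the difference between the PFOS groups was 1.47 (SE 0.45, adjusted p = 0.613). With all arrays limma called 0 members between the PFOS groups, as it did 0% of all probes. At an unadjusted p under 0.05, 1 was lower (3.91% of all probes) and 6 were higher (3.82%) on the high-fat diet. Without the 2 divergent arrays 16 members were called higher in high-fat PFOS than in low-fat PFOS, as were 1.08% of all probes. Snord104 was among them, at 2.22 (SE 0.25, adjusted p = 0.000295), as was Snord71, at 2.24 (SE 0.41, adjusted p = 0.0116).

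PFNA and PFOS differ in the acid group at the end of their fluorinated chain, which is a carboxylic acid in PFNA and a sulfonic acid in PFOS. Whether their doses were matched is not given. On the low-fat diet the PFNA minus PFOS difference had a median of −0.02 for Snora and 0.12 for Snord. With all arrays limma called 0 members there, as it did 0% of all probes. At an unadjusted p under 0.05, 0 were lower (1.82% of all probes) and 0 higher (2.1%). The 95% interval for Snora73a ran from −2.14 to 0.67 around −0.73. Without the divergent arrays the sign of this difference turned, to 0.31, and the class medians were 0.32 for Snora and 0.51 for Snord. The mean was then lower in PFNA for 7 of 73 members (48.3% of all probes), and with all arrays for 24 (48%). On the high-fat diet the median was 0.04 for Snora and 0.10 for Snord, and limma called 0 members with all arrays (0% of all probes lower and 0.0029% higher). Counted at an unadjusted p under 0.05, 5 were lower (3.76% of all probes) and 7 higher (3.49%) with PFNA. Without the divergent arrays the medians were −0.05 and −0.13, and the mean was lower in PFNA for 48 of 73 members (49.3% of all probes), and with all arrays for 32 (50.8%). Snora61 had signals of 6.68, 7.01 and 8.48 in high-fat PFNA, against 8.45, 8.72 and 8.56 in high-fat PFOS. PFNA replicate 3 reached the PFOS arrays, and the difference was −1.19 (SE 0.42, adjusted p = 0.654). Without the divergent arrays Snora61 (−1.73, SE 0.22, adjusted p = 0.0012), Snora73a (−2.27, SE 0.27, adjusted p = 0.000568) and Snora73b (−2.47, SE 0.29, adjusted p = 0.000568) were called lower in PFNA, with 0.728% of all probes.

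A test of any difference among the 6 groups called 0 of the 73 members with all arrays, with 0.96% of all probes called. It took, at an unadjusted p under 0.05, 20 members, against 14.1% of all probes. The smallest adjusted p-values were those of Snord35b (0.0573), Snora30 (0.0881), Snord16a (0.0893) and Snora73a (0.0897). Without the 2 divergent arrays 31 members were called, against 4.89% of all probes.

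In the comparisons of a compound with its control, the box H/ACA and the box C/D genes were alike in direction. On the low-fat diet 24 of 26 Snora and 41 of 47 Snord genes had a lower mean under PFOS, and 24 of 26 and 43 of 47 under PFNA. The Snord median lay below the Snora median for both compounds, whereas the lowest single differences with PFNA were those of a Snora pair (−2.95 for Snora73b, against −1.65 for the lowest Snord). The spread of class levels between arrays of a group was 0.36 for Snora and 0.40 for Snord (pooled SD, divergent arrays included). It was larger than the distance between the class medians in each of the 5 comparisons with a control. Both levels come from the same arrays and moved together, so this spread is not the error of that distance. The difference between the classes was not tested. In some other comparisons the classes parted more with all arrays. On the low-fat diet the mean was lower in PFNA than in PFOS for 13 of 26 Snora and 11 of 47 Snord genes (48% of all probes). Without the 2 divergent arrays it was lower for 4 and 3 (48.3%).

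Differences were also set against the signal. Of the members, 62 had a mean above the median probe of 4.48, and 11 had a mean below it. In the low-fat PFOS comparison the median difference was −0.67 for the brighter and −0.26 for the dimmer members, and in the low-fat PFNA comparison it was −0.59 and −0.18. At an unadjusted p under 0.05, 26 of 62 brighter and 1 of 11 dimmer members were lower with PFOS (5.94% of all probes). With PFNA 20 and 3 were lower (6.21%). The shares of all probes were not split by signal. Snord92 is among the dimmer members and differed by −1.65 with PFNA.

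Host genes were compared next, since an intronic snoRNA and its host are made from 1 transcript. The tables used give no strand for the snoRNAs, so the host is the shortest RefSeq gene whose span contains the member. There were 56 hosts, of which 43 had a probe of their own, and Snord13, Snord89 and Snord118 had no host. With limma 0 of the 43 hosts were called in any of the 4 compound comparisons, with all arrays or without the divergent ones. The share of all probes called with all arrays was 0.389% and 0.566% for PFOS and PFNA on the low-fat diet. It was 1.02% and 0.113% on the high-fat diet. Among the 43 hosts at an unadjusted p under 0.05, 2 were higher (6.01% of all probes) and 2 lower (5.94%) with PFOS on the low-fat diet. With PFNA 2 were higher (6.66%) and 5 lower (6.21%). The median host difference was 0.05 with PFOS and −0.10 with PFNA on the low-fat diet, and 0.16 and 0.04 on the high-fat diet.

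**Figure D5:**
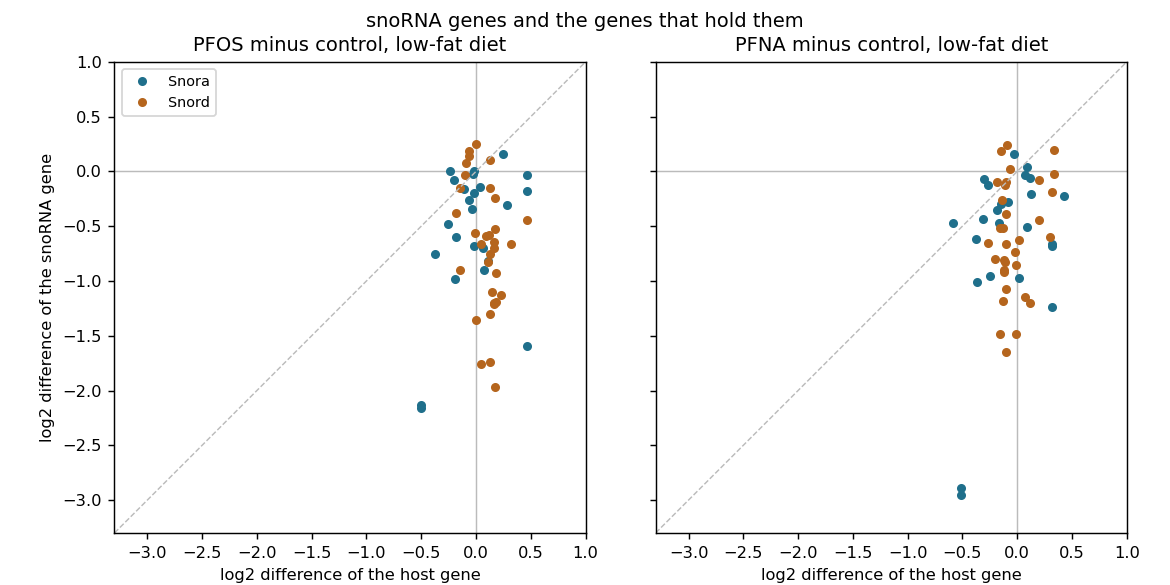
Log2 difference of each member (vertical) against that of its host gene (horizontal) for PFOS and PFNA against control on the low-fat diet, on equal scales, with the line of equal difference dashed. The hosts lie between −0.50 and 0.47 with PFOS and between −0.59 and 0.43 with PFNA, while members reach −2.16 and −2.95.

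Snhg3, the noncoding host of the U17 pair, had signals of 5.43, 5.78 and 5.93 in low-fat PFOS, 5.78, 5.68 and 5.67 in low-fat PFNA and 6.21, 5.79 and 6.65 in low-fat control. Its PFOS and control arrays overlap, and its differences were −0.50 and −0.51 (SE 0.19, adjusted p = 0.303 and 0.254), against −2.16 and −2.89 for Snora73a. With high-fat PFOS Snhg3 differed by −0.51 (adjusted p = 0.238), and Snora73a by −0.01.

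Members of 1 host did not all move alike. Snhg12 holds 4 members, and the host itself differed by 0.47 with PFOS and 0.32 with PFNA on the low-fat diet (adjusted p = 0.27 and 0.439). Snora16a, from this host, differed by −1.59 with PFOS and −1.24 with PFNA on the low-fat diet, and by −0.91 and −0.97 on the high-fat diet. Snora61, from the same host, differed by −0.03 and −0.68 on the low-fat diet and by 1.11 and −0.07 on the high-fat diet. On the high-fat diet with PFOS, every array lay below the controls for Snora16a (9.27, 9.78 and 9.69, against 10.75, 10.38 and 10.34) and every array lay above them for Snora61. The difference between these members was not tested.

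Nop58, which encodes a core protein of the box C/D particle, holds Snord11 and Snord70. Snord11 differed by −1.97, −1.48, −1.25 and −0.87 in low-fat PFOS, low-fat PFNA, high-fat PFOS and high-fat PFNA. Snord70 differed by −0.53, −0.52, 0.51 and 0.23 in the same comparisons, and the host by 0.17, −0.16, 0.35 and −0.18. The 18 members in ribosomal protein genes had median differences of −0.78 and −0.63 with PFOS and PFNA on the low-fat diet. The 20 members in long noncoding hosts had −0.62 and −0.65. On the high-fat diet the medians were −0.29 and −0.32 in ribosomal protein genes, and 0.12 and −0.09 in long noncoding hosts.

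Genes that work on snoRNAs were set beside them from lists. The core proteins of the 2 particles were not called in any compound comparison (0 of 3 for box C/D and 0 of 4 for box H/ACA). In low-fat PFOS, low-fat PFNA, high-fat PFOS and high-fat PFNA, 0.389%, 0.566%, 1.02% and 0.113% of all probes were called. Medians of the 4 box H/ACA core genes were 0.28, 0.14, 0.30 and 0.08 in the same order. Those of the 3 box C/D core genes were 0.17, −0.16, 0.14 and −0.09. The largest difference of a core gene was that of Nhp2 with high-fat PFOS (0.58, SE 0.17, adjusted p = 0.103). Dkc1, which encodes dyskerin, differed by 0.13 with PFOS (SE 0.15, adjusted p = 0.792) and by −0.15 with PFNA (SE 0.15, adjusted p = 0.731) on the low-fat diet. Assembly factors (13 measured) and genes of ribosomal RNA transcription and the nucleolus (23 measured) had 0 calls, with medians between 0.01 and 0.14. Of the 23, 5 were higher at an unadjusted p under 0.05 in each comparison (6.01%, 6.66%, 7.12% and 4.92% of all probes). Lower were 0, 1, 0 and 1 (5.94%, 6.21%, 6.42% and 4.86%). Of the assembly factors, 2, 2, 4 and 2 were higher and 1, 0, 1 and 0 lower. Of the 13 measured genes for opening intron lariats and trimming by the exosome, Exosc8, an exosome subunit, rose with low-fat PFNA (0.74, SE 0.14, adjusted p = 0.0204) and with high-fat PFOS (0.63, SE 0.14, adjusted p = 0.0365). The 13 had medians of 0.22 with PFOS and 0.17 with PFNA on the low-fat diet, and 0.20 and 0.13 on the high-fat diet. At an unadjusted p under 0.05, 6 (6.01% of all probes), 5 (6.66%), 4 (7.12%) and 1 (4.92%) were higher in that order. In each comparison 0 were lower.

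Other classes of small RNAs had medians nearer 0, though the class nearest in kind showed a like array pattern on the low-fat diet. The 17 small Cajal body and small nuclear RNAs and their kin had medians of −0.26 with PFOS and −0.25 with PFNA on the low-fat diet, and −0.06 and −0.09 on the high-fat diet. Per array, their median deviation was −0.41, −0.31 and 0.32 in low-fat PFOS and −0.23, −0.07 and −0.26 in low-fat PFNA. It was 0.06, 0.12 and 0.09 in low-fat control. At an unadjusted p under 0.05, 5 of 17 were lower with low-fat PFOS (5.94% of all probes). With low-fat PFNA 3 were lower (6.21%), and 0 were higher with either compound. Rnu11, the U11 RNA of the minor spliceosome, fell with low-fat PFNA (−0.75, SE 0.14, adjusted p = 0.0224). It was the 1 call among the 17 there, with 0.191% of all probes called lower. The medians of 478 microRNA genes lay between −0.09 and −0.06 in the 4 compound comparisons. Of these genes 1 was called, Mir101c (−1.60, SE 0.36, adjusted p = 0.0417), lower with high-fat PFOS, where 0.389% of all probes were called lower. Ribosomal protein genes (67 measured) had medians of 0.05 and −0.10 on the low-fat diet and 0.20 and 0.05 on the high-fat diet. Called was 1, Rpl22l1 (−0.78, SE 0.14, adjusted p = 0.0163), lower with low-fat PFNA, where 0.191% of all probes were called lower. With high-fat PFOS 13 of 67 were higher at an unadjusted p under 0.05 (7.12% of all probes) and 3 lower (6.42%). In low-fat PFOS, low-fat PFNA and high-fat PFNA, 3, 1 and 2 were higher (6.01%, 6.66% and 4.92%). Lower were 3, 7 and 2 (5.94%, 6.21% and 4.86%).

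Markers of liver cell types were not called in any of the 4 compound comparisons (0.113% to 1.02% of all probes), but some lay apart on the low-fat diet. In whole liver, fewer cells of a type and less RNA per cell cannot be told apart. The 7 macrophage markers had a median difference of 0.56 with PFOS and 0.72 with PFNA. Of them, 2 and 4 were higher at an unadjusted p under 0.05 (6.01% and 6.66% of all probes). Per array, their median deviation was 0.57, 0.12 and 0.02 in low-fat PFOS, 0.45, 0.21 and 0.53 in low-fat PFNA and −0.55, −0.70 and 0.12 in low-fat control. Control replicate 3 lay within the PFOS range. The 7 markers of sinusoidal endothelium had medians of 0.35 and 0.42. Of these, 4 and 7 were higher at an unadjusted p under 0.05 (6.01% and 6.66% of all probes). The 8 hepatocyte markers had medians of −0.08 and −0.19, and the erythroid markers had no probe of 1 symbol. The 7 stellate cell markers had medians of 0.36 and 0.20 on the low-fat diet and of −0.31 and −0.29 on the high-fat diet. The part of these cell types in the snoRNA differences was not tested.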

How the data were processed

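The deposited values, 1 for each probe on each array, were taken as log2 signal from their range. Per the submitters' processing notes the authors made these log2 values with Transcriptome Analysis Console, with no version stated; normalization is not given in the sources used here. Liver RNA was isolated in Trizol and carried a biotin label, per the labels' protocols. Symbols came from the platform's probe annotation. No probe was filtered out. limma 3.58.1 in R 4.3.3 was fitted to 18 arrays with 1 mean per group (12 residual and 5.21 prior degrees of freedom). It gave 11 contrasts, with Benjamini-Hochberg adjustment over 34472 probes in each, and was tested on simulated data. Intervals are 95%. The number of arrays limits the precision.

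The members, lists, tests and the 2 arrays left out were chosen with earlier results of these data known. Named were the called members per contrast (otherwise the 2 largest of each class) and the 10 with the smallest F-test p of each class. The members called only without the 2 arrays, and others where said, were picked after their values were seen. Hosts were to share the member's strand, which the tables used do not give, so containment alone was used. Alternatives were quantile normalization, centring, a signal filter, only the groups compared, a trended robust prior, array weights, a replicate block, probe averaging, and leaving out arrays.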

Additional observations from a re-analysis of the deposited data

How the results depend on the processing

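The class medians kept their sign in the 4 comparisons of a compound with its control under the 9 alternatives other than leaving out single arrays. Those of the Snora genes lay between −1.0 and −0.34 for low-fat PFOS and between −0.52 and −0.41 for low-fat PFNA. The counts of called members depended on the setting, and the cause was not tested. The share of all probes called in the same fit, in either direction, follows in brackets. For low-fat PFOS against control, where 1 member was called, 0 were with only the groups compared (0.0174%) or with a trended robust prior (0.56%), 6 with array weights (0.801%), and 27 without the 2 divergent arrays (1.32%), with medians of −1.0 (Snora) and −1.17 (Snord). For low-fat PFNA, where 0 were called, there were 4 among probes above the median signal (3.43%), 10 with only the groups compared (0.563%), 3 with array weights (1.54%), and 6 without the divergent arrays (1.72%). For high-fat PFOS there were 1 with the signal filter (4.61%), 2 with only the groups compared (0.821%) and 5 without the divergent arrays (2.93%). Without those 2 arrays there were also 4 for high-fat PFNA (0.429%), 16 for high-fat against low-fat PFOS (2.22%), 3 for high-fat PFNA against PFOS (1.48%), 5 for the interaction of diet and PFOS (0.241%, with a Snord median of 0.92) and 31 in the test over 6 groups (4.89%), which had 2 with the signal filter (4.16%) and 7 with array weights (2.06%). The difference of low-fat PFNA minus PFOS reversed without the divergent arrays for Snora73a (0.31) and Snora73b (0.26). With a replicate block, 2 members were called for low-fat PFNA (0.603%) and 2 over the 6 groups (1.13%); the block changed no other count by more than 1.5 times. The numbers were not taken to pair the arrays: deviations from group means correlated between −0.07 and 0.42 (median 0.00, 45 pairs of arrays) for equal numbers and between −0.28 and 0.22 (median 0.01, 90 pairs) for unequal ones. With 1 array left out at a time, the count of called members ran from 0 to 24 for low-fat PFOS, 0 to 6 for low-fat PFNA, 0 to 3 for high-fat PFOS, 0 to 3 for high-fat against low-fat PFOS and 0 to 22 over the 6 groups, each time highest without low-fat PFOS replicate 3 (0.754%, 1.01%, 1.93%, 0.0957% and 2.78% in that order), and it was 0 throughout for high-fat PFNA against control and for high-fat against low-fat control. In these fits the medians for low-fat PFOS ran from −1.0 to −0.25 (Snora) and from −1.17 to −0.43 (Snord). The Snord median of the interaction of diet and PFOS ran from 0.18 to 0.92. The low-fat PFNA minus PFOS difference ran from −1.28 to 0.31 for Snora73a and from −1.37 to 0.26 for Snora73b. For high-fat PFNA against control the medians ran from −0.41 to −0.10 (Snora) and from −0.44 to 0.02 (Snord), and for high-fat PFOS from −0.29 to −0.05 and from −0.46 to 0.00. Signal over background is not given in the files, so members near or below the median signal may be limited by it.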

Other observations

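A further 43 probes pair a snoRNA symbol with the symbol of another gene, most often the host, and were not members. They held 28 distinct rows of values, since 16 probes annotated to Gm26504, Snord116l1 and Snord116l2 carried identical values in every array. Over the 28 distinct rows the median difference was −0.35 with PFOS and −0.35 with PFNA on the low-fat diet, with a lower mean for 24 and 26 of them, and −0.05 and −0.14 on the high-fat diet, with a lower mean for 17 and 20. With limma 0 of the 28 were called in these 4 comparisons. At an unadjusted p under 0.05, 9 of 28 were lower with low-fat PFOS (5.94% of all probes), 9 with low-fat PFNA (6.21%), 3 with high-fat PFOS (6.42%) and 1 with high-fat PFNA (4.86%). The probe of Snord15b and Rps3 had the lowest difference on the low-fat diet, −1.65 with PFOS and −1.33 with PFNA, and was picked for that.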
